A study of Mus musculus with 39 samples.

Results

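The genes described here are 10 serotonin receptor genes of the mouse neocortex, and the values cover their level, their detection and their open chromatin in nuclei sorted by INTACT or by FANS. They were taken by name from the list Htr1a, Htr1b, Htr1d, Htr1f, Htr5a, Htr2a, Htr2c, Htr4, Htr7 and Htr3a, and all 10 were found among the 24421 genes of the RNA tables. INTACT pulls tagged nuclei out of a suspension with antibody-coated magnetic beads, whereas FANS sorts them by fluorescence in a flow cytometer. Both techniques were used on nuclei of mice that carried Arc-creERT2 (TG/WT) together with R26 CAG-Sun1-sfGFP-Myc on 1 or both alleles (M/WT, M/M), so that a green nuclear membrane tag marked cells in which the Arc promoter had driven the inducible Cre. The mice were males and females of 13 to 16 weeks, received tamoxifen 5 h before a social interaction test, and gave their tissue on day 3. The labels call the sorted material activated neuronal nuclei.

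Nuclear RNA was sequenced in 3 batches, each from its own biological source. The RNA integrity was higher in batch 1 than in the others. The tables held 4 FANS and 4 INTACT libraries in batch 1, 7 and 4 in batch 2, and 7 and 5 in batch 3. A further pair of batch 2 libraries, FANS replicate 3 and INTACT replicate 5, was not analysed here. ATAC-seq, which cuts open chromatin with a transposase, was done on 3 FANS and 3 INTACT libraries that were technical replicates of 1 source. Every p-value below measures the spread between these libraries. That spread is technical for ATAC-seq, and within each RNA batch it lies between libraries of 1 source.

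Serotonin reaches the neocortex along fibres from the raphe nuclei and acts there on receptors of several signalling classes. Receptors of the Gi/o class lower cyclic AMP and open potassium channels, those of the Gq class activate phospholipase C and release calcium, and those of the Gs class raise cyclic AMP. The Htr3a product forms a cation channel that serotonin opens directly. In the cortex, Htr2a is known for its place in pyramidal neurons of the deep layers and as the target of classical psychedelic drugs, Htr1a as an inhibitory receptor of pyramidal neurons, and Htr3a as the marker of a class of interneurons that also includes the Vip cells.

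Between 4205665 and 11028713 reads per library fell on genes, with the deepest libraries in the INTACT group of batch 1 (8621143 to 11028713, against 4853224 to 6066759 in its FANS group). A further 71.3 to 85.1% of all counted reads lay outside the annotated features. This share did not overlap between the techniques in batch 1 (79.4 to 81.7% in FANS, 71.3 to 72.7% in INTACT). In batch 2 it was 79.4 to 81.6% in FANS and 77.4 to 78.9% in INTACT, again without overlap. In batch 3 it overlapped, at 80.0 to 85.1% and 81.9 to 83.0%. The levels below thus rest on the exonic part of nuclear RNA. In the markers fixed as a check, Slc17a7 of excitatory neurons had 1286 to 2778 normalized counts over the 31 libraries, Arc 229 to 1747 and Gad1 of inhibitory neurons 53.8 to 196. The astrocyte gene Slc1a3 reached 15.7 to 151, so RNA of a glial gene was present in every library of this neuronal sort.

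The receptor genes spanned more than 2 orders of magnitude in level. With reads scaled to 1000000 on genes per library (RPM) and divided by the exon length in kilobases (RPKM), Htr1f and Htr2a stood highest in every batch, followed by Htr5a, and Htr3a stood lowest. In batch 1 the mean over the 8 libraries was 13.6 RPKM for Htr1f (12.2 to 15.2) and 13.5 for Htr2a (10.3 to 15.9), and the libraries of this pair overlapped. Htr5a followed at 7.43, Htr2c at 4.80, Htr1a at 2.40 and Htr7 at 1.26 RPKM. The libraries of each did not overlap those of its upper neighbour, with the exception of Htr2c and Htr5a, which overlapped. Htr1b (0.633), Htr1d (0.397), Htr4 (0.306) and Htr3a (0.0988) formed the low end, and neighbours among these 4 overlapped. Among the 14426 genes tested in batch 1 that had an exon length, 73.0% had a lower level than Htr1f and 72.8% a lower level than Htr2a, against 26.5% for Htr1a, 5.12% for Htr1d and 3.41% for Htr4.

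The order was nearly the same in the other batches. In batch 2, Htr1a (2.23 RPKM) and Htr7 (2.12) overlapped, and in batch 3, Htr1a (3.52) stood above Htr2c (3.29) with overlapping libraries. Htr2c stood at 4.80, 5.47 and 3.29 RPKM in batches 1, 2 and 3, and Htr1d at 0.397, 0.529 and 0.147. The tables were normalized separately, and the batches differed in source and RNA integrity, so differences between batches cannot be told apart from these. The Gi/o class supplied between 53.2 and 59.9% of the summed receptor RPKM in each batch and technique, and the Gs class between 3.11% (batch 1 INTACT) and 5.43% (batch 2 INTACT).

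**Figure D1:**
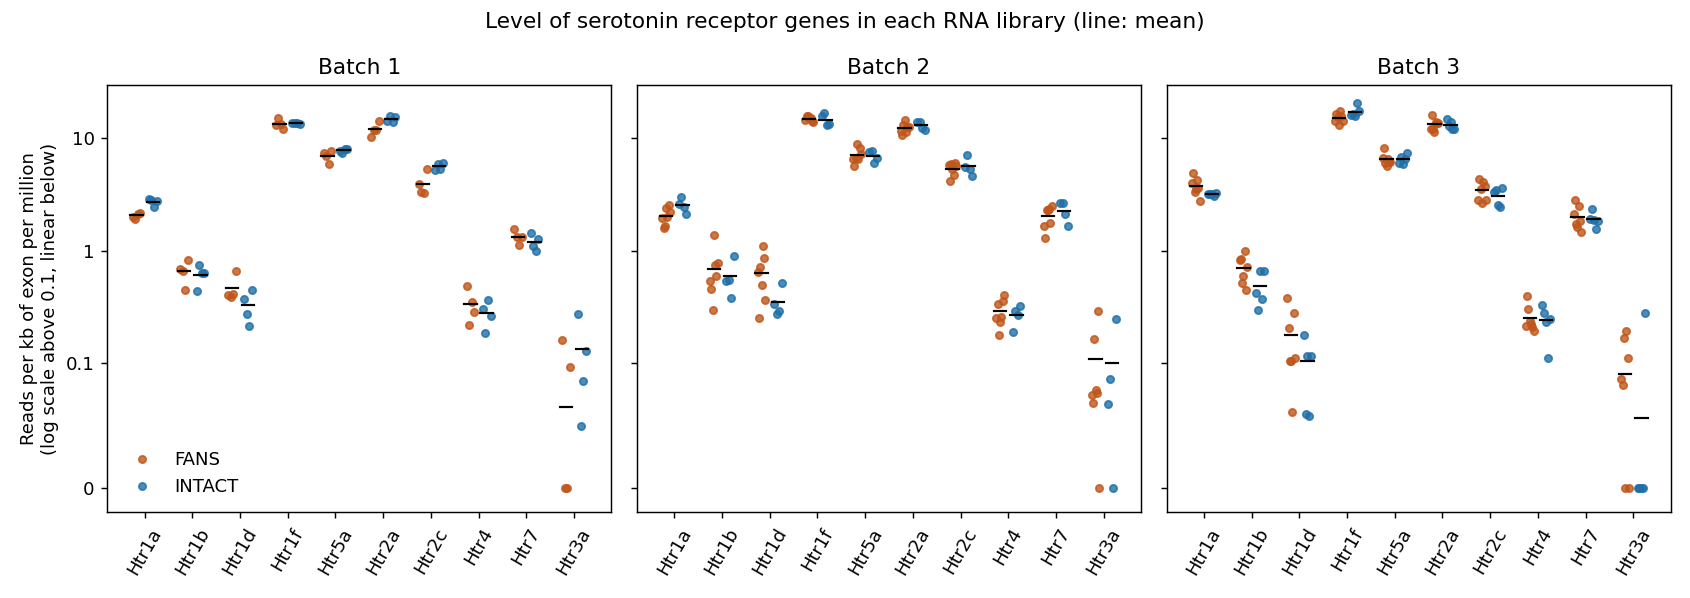
Level of each receptor gene in RPKM, on an axis that is logarithmic above 0.1 and linear below it, with 1 point per library and a line at each group mean, in 3 panels for the 3 RNA batches. Htr1f and Htr2a sit at the top of each panel, at mean levels of 13.6 and 13.5 in batch 1, and Htr3a sits at the bottom.

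Detection followed the level. Each of 9 members had at least 1 read in all 31 libraries, with totals from 235 reads for Htr1d to 7933 for Htr5a. Htr3a had a read in 21 of the 31 libraries, at most 5 in any of them and 39 in all. In batch 1, Htr3a normalized counts were 2.57, 0, 0 and 1.53 in FANS and 4.33, 0.760, 1.33 and 1.98 in INTACT. Summed over libraries this was 0.134 RPM in FANS (exact Poisson 95% interval 0.0276 to 0.392) and 0.274 in INTACT (0.137 to 0.490), intervals that cover counting error only and that overlap. In batch 3, 4 of the 5 INTACT libraries had 0 reads, which allows up to 0.585 to 0.607 RPM at the limit of 3 reads. A difference in Htr3a between the techniques was not detectable at this depth, and the gene lay under the filter of a mean of 5 normalized counts in all 3 batches.

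The comparison of techniques asked, within each batch, whether the way of sorting changed the measured RNA. None of the receptor genes was called in any batch in either direction, a call being an adjusted p under 0.05 together with a difference of 1.5-fold or more. Called genes made up 4.03% (higher in INTACT) and 3.94% (lower) of the 15114 genes tested in batch 1, 0.0941% and 0.0336% in batch 2, and 0.0139% and 0.346% in batch 3. DESeq2 and edgeR on the recovered reads called no member either, although DESeq2 gave no adjusted p for 8 of the values in batches 2 and 3. At an unadjusted p under 0.05, limma gave 3 members in batch 1, 1 in batch 2 and 1 in batch 3, of 9, 9 and 8 tested, beside 6724 of 15114, 2268 of 14876 and 1985 of 14440 genes. The median change of the tested members was close to 0 in each batch, at -0.00, -0.01 and -0.06 on the log2 scale beside 0.01, -0.00 and -0.00 over all genes tested. In such bulk libraries, fewer cells of a type and less RNA per cell cannot be told apart.

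Below that fold threshold, 3 of the 9 members tested in batch 1 had an adjusted p under 0.05, and all of them were higher in INTACT: Htr2c, Htr2a and Htr1a. The share of all tested genes that did so in this direction was 18.6%, and 17.5% did so in the other. The largest of the 3 was Htr2c, which couples to Gq and regulates appetite and mood. The gene lies at chrX:146962464-147197277 on the plus strand (GRCm38.p6). Its normalized counts were 140, 119, 121 and 190 in FANS and 188, 208, 187 and 210 in INTACT. The 4th FANS library lay among the INTACT values and the other 3 lay below all of them. The log2 difference was 0.50 (SE 0.119, 95% confidence interval 0.25 to 0.74, 1.41-fold, limma adjusted p = 0.00180). Without FANS replicate 4 it was 0.64 with an adjusted p of 1.05e-05, and Htr2c was then called.

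Htr2a (chr14:74640874-74706859, plus strand), the main Gq-coupled receptor of cortical pyramidal neurons, had 226, 257, 266 and 313 normalized counts in batch 1 FANS and 313, 341, 302 and 332 in INTACT. The groups met at the highest FANS library. The log2 difference was 0.28 (SE 0.0874, interval 0.10 to 0.46, 1.22-fold, adjusted p = 0.0123), and it lost its adjusted p under 0.05 in 2 of the 8 fits that left out a library, without FANS replicate 1 and without INTACT replicate 2. Htr1a (chr13:105443693-105448133, plus strand), the Gi/o-coupled receptor that hyperpolarises neurons, had 66.9, 63.8, 72.2 and 71.8 in FANS and 96.0, 91.8, 79.7 and 89.2 in INTACT. It was the only member of batch 1 whose groups did not overlap in this direction, which 17.1% of all tested genes did. The log2 difference of Htr1a was 0.37 (SE 0.132, interval 0.10 to 0.64, 1.29-fold, adjusted p = 0.0299). Its adjusted p passed 0.05 in 4 of the 8 fits that left out a library, the fits without FANS replicate 2 and without INTACT replicates 1, 2 and 4, where it reached up to 0.0880. With DESeq2 it was 0.0620.

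None of the 3 genes passed the adjusted p of 0.05 in batch 2 or batch 3. In batch 2, Htr1a ran from 44.6 to 69.9 in FANS (median 56.6) and was 73.4, 82.5, 67.9 and 58.3 in INTACT, a log2 difference of 0.33 (adjusted p = 0.282). In batch 3 it ran from 63.2 to 108 in FANS (median 82.4) and was 73.1, 72.0, 73.2, 71.8 and 74.1 in INTACT, a difference of -0.20 (adjusted p = 0.484). The 5 INTACT libraries of batch 3 lay close together, inside the wide range of the FANS libraries. Htr2a had 200 to 258 in batch 2 FANS and 219 to 260 in INTACT, a difference of 0.09 (adjusted p = 0.646). Its batch 3 values, 173 to 238 and 185 to 226, gave 0.01 (adjusted p = 0.985). Htr2c had 126 to 177 in batch 2 FANS and 139 to 211 in INTACT, a difference of 0.08 (adjusted p = 0.789). The batch 3 values of Htr2c, 66.3 to 104 and 61.6 to 89.3, gave -0.14 (adjusted p = 0.710). All of these groups overlapped.

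The difference between batches was itself tested in the 14332 genes that passed the filter in all of them, among them 8 members. Between batches 1 and 3 the effect of technique differed for Htr2c by 0.64 (SE 0.192, adjusted p = 0.0128) and for Htr1a by 0.58 (SE 0.189, adjusted p = 0.0224), while Htr2a gave 0.28 (adjusted p = 0.108). The same test passed for 23.3% of all genes. Between batches 1 and 2 no member passed, against 6.30% of all genes, with the largest value at Htr2c (0.42, adjusted p = 0.207). Between batches 2 and 3 no member and 0% of genes passed. At an unadjusted p under 0.05 this last comparison gave 1831 genes and 1 member, Htr1a (0.53, adjusted p = 0.191).

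**Figure D2:**
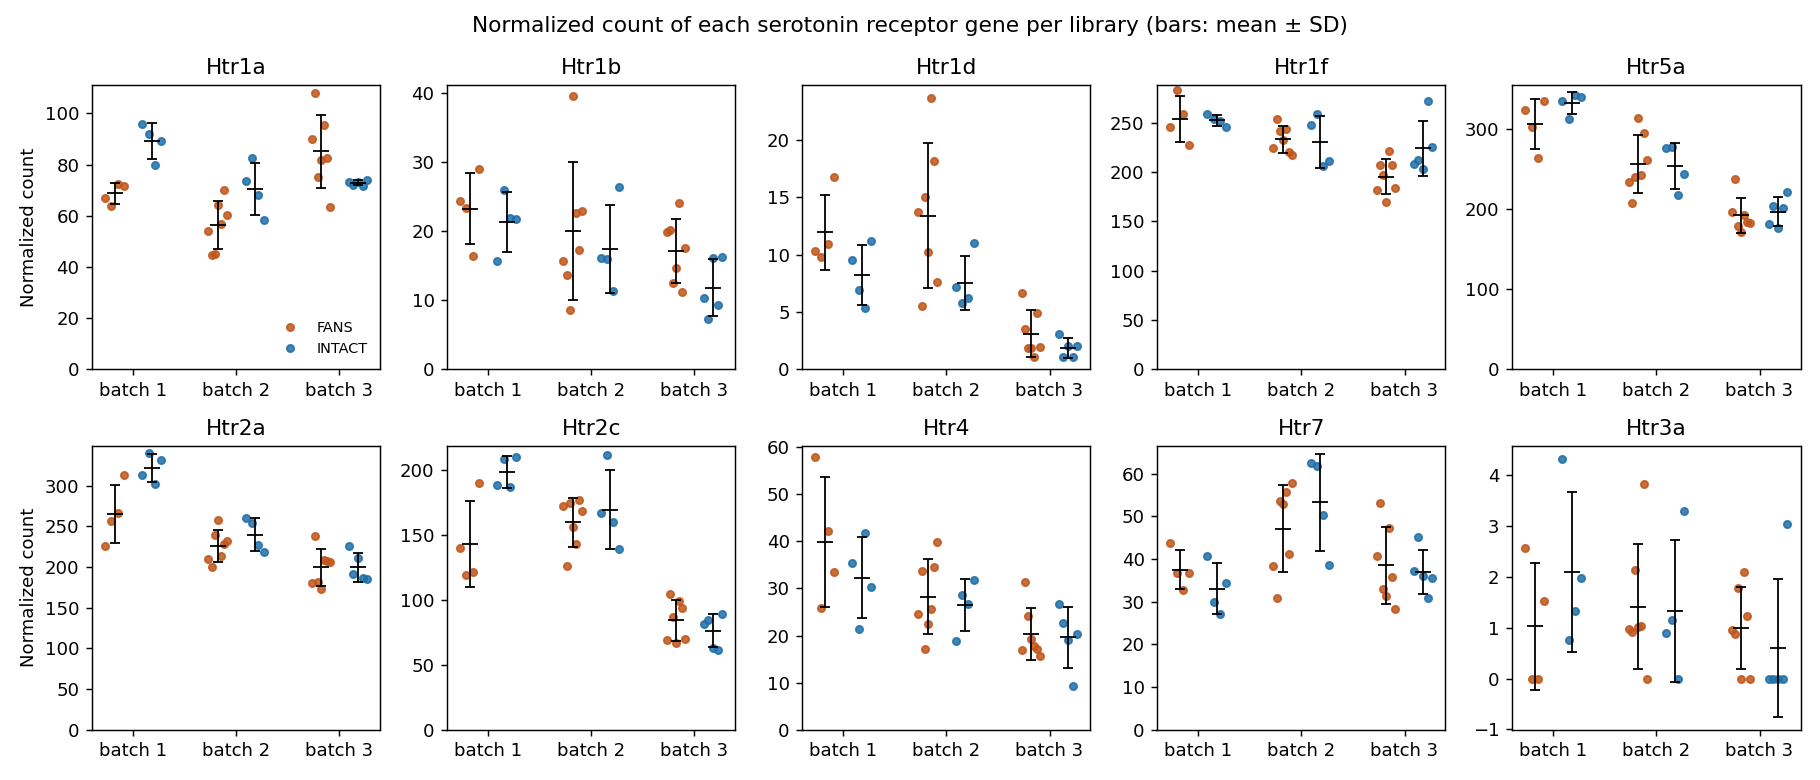
Normalized count of each receptor gene in every library (points), by batch and technique, with the group mean and SD as bars. In batch 1 the INTACT points of Htr1a all lie above the FANS points, those of Htr2a and Htr2c lie mostly above them, and in the Htr2c panel the FANS library at 190 lies among the INTACT libraries.

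Of the other Gi/o-coupled genes, Htr1f and Htr5a were both abundant and near 0 in technique difference. Htr1f (chr16:64924729-65105784, minus strand), whose product is the target of the migraine drug lasmiditan, had 228 to 283 normalized counts in batch 1 FANS and 246 to 259 in INTACT, a log2 difference of -0.00 (interval -0.17 to 0.17). It had 217 to 254 and 206 to 259 in batch 2 (-0.02), and 170 to 222 and 203 to 272 in batch 3 (0.19, interval 0.02 to 0.37, adjusted p = 0.305). Htr5a, a less studied inhibitory receptor, had 264 to 336 and 313 to 343 in batch 1 (0.12, adjusted p = 0.244). Its differences were -0.01 in batch 2 (208 to 314 and 218 to 278) and 0.03 in batch 3 (172 to 238 and 176 to 221). For Htr1f and Htr5a the intervals of batch 1 ended at 0.17 and 0.29, below the 1.5-fold threshold.

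Htr1b and Htr1d encode the receptors on axon terminals that hold back transmitter release, and both were low. Htr1b had 24.4, 23.3, 16.4 and 29.0 in batch 1 FANS and 15.6, 26.0, 21.9 and 21.8 in INTACT, which overlapped (-0.12, adjusted p = 0.762). In batch 2 it had 8.56 to 39.6 in FANS and 11.3 to 26.4 in INTACT (-0.12, adjusted p = 0.891). In batch 3 it had 11.1 to 24.1 and 7.20 to 16.2, a difference of -0.52 with an interval of -1.05 to 0.01 (adjusted p = 0.378). Htr1d had 10.3, 9.81, 10.9 and 16.8 in batch 1 FANS and 9.52, 6.88, 5.31 and 11.2 in INTACT (-0.50, interval -1.24 to 0.23, adjusted p = 0.289). In batch 2 it had 5.46 to 23.7 in FANS (median 13.7) and 7.16, 5.73, 6.17 and 11.0 in INTACT (-0.67, interval -1.36 to 0.02, adjusted p = 0.343). The fitted Htr1d values were below 0 in both batches where it was tested, and both intervals reached past 0. Its batch 3 values, 1.05 to 6.63 and 1.03 to 3.09, lay under the filter.

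The Gs-coupled genes overlapped between techniques in every batch. Htr4, which encodes a receptor that raises cyclic AMP in pyramidal neurons, had 25.8 to 57.9 in batch 1 FANS and 21.4 to 41.8 in INTACT (-0.27, adjusted p = 0.404), with differences of -0.06 and -0.09 in batches 2 and 3. The batch 1 value of Htr4 was -0.08 without FANS replicate 1 and -0.46 without FANS replicate 2. Htr7, whose receptor also takes part in circadian timing, had 32.7 to 43.7 and 27.2 to 40.7 in batch 1 (-0.19, adjusted p = 0.505). Its differences were 0.18 in batch 2 (30.9 to 57.7 and 38.5 to 62.6) and -0.04 in batch 3 (28.2 to 53.2 and 30.8 to 45.2). The intervals of both genes in batch 1, -0.77 to 0.22 for Htr4 and -0.60 to 0.23 for Htr7, were wide enough to include a 1.5-fold fall.

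**Figure D3:**
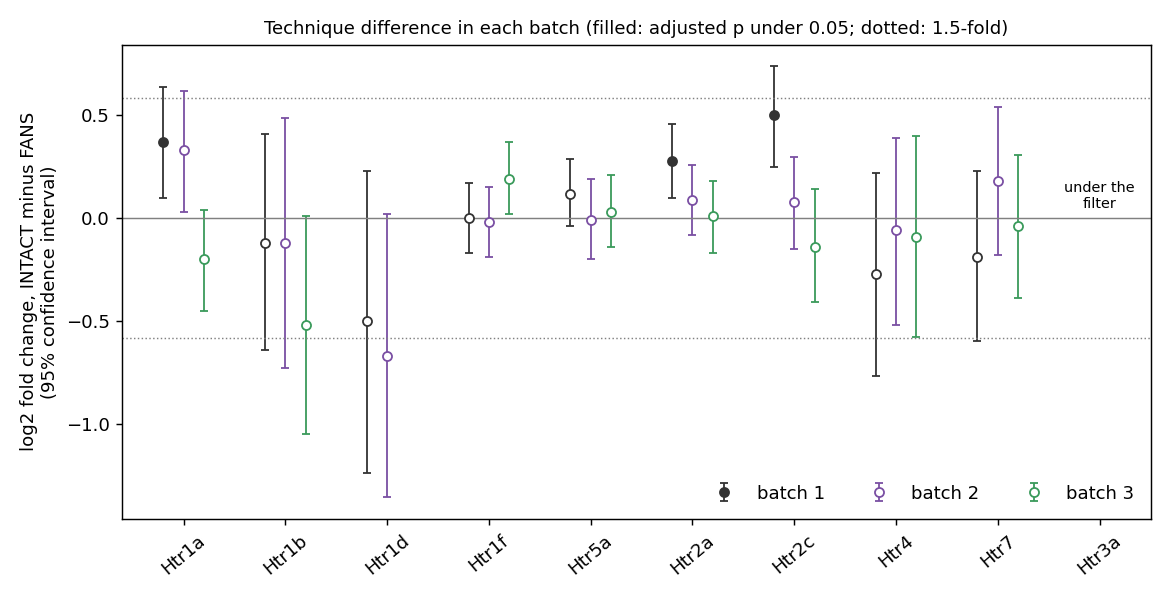
Log2 fold change of normalized counts, INTACT minus FANS, with its 95% confidence interval for each receptor gene and batch, where filled points have an adjusted p under 0.05 and dotted lines stand at 1.5-fold. The 3 filled points are Htr1a, Htr2a and Htr2c of batch 1, and Htr3a in every batch and Htr1d in batch 3 have no point because they lay under the filter.

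Measured by shares, the Gq class took 38.5 ± 3.72% of the summed receptor RPKM in batch 1 FANS and 43.4 ± 1.71% in INTACT (SD, n = 4 each). The ranges, 35.5 to 43.7% and 41.7 to 45.3%, overlapped. The Gi/o class took 57.3 ± 3.36% in FANS and 53.2 ± 1.32% in INTACT. In batch 2 the Gq share was 38.9% in FANS and 40.2% in INTACT, and in batch 3 it was 36.8 and 35.3%. The summed reads of the 10 genes gave 141 to 169 RPM in batch 1 FANS and 173 to 181 in INTACT, whereas the sums overlapped in batch 2 (145 to 190 and 155 to 194) and in batch 3 (141 to 201 and 155 to 169).

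Markers of other cells moved with technique in batch 1 beside these receptor values. Of the excitatory neuron markers, 0 of 11 were called, and their sum overlapped (1636 to 1706 RPM in FANS, 1638 to 1676 in INTACT), although Slc17a7 itself was 0.50 higher on the log2 scale (adjusted p = 1.92e-08). Of the astrocyte markers, 4 of 8 were called higher, with Gja1 at 2.07 and Slc1a3 at 1.52. The sum of all 8 was 952 to 1083 RPM in FANS and 1194 to 1229 in INTACT. Most of that sum came from Slc1a2, which was not called (0.21, mean normalized counts of 6377 in FANS and 7347 in INTACT). Of the oligodendrocyte markers, 6 of 9 were called higher, with Mal at 1.07 and Cldn11 at 0.89, and their sum was 792 to 1028 RPM against 1351 to 1415. Both vascular genes tested, Pdgfrb (0.81) and Vtn (1.42), were called higher and the microglial gene P2ry12 lower (-1.01, 1 of 4 tested). The list for medial ganglionic eminence interneurons also holds Gad1, Gad2 and Slc32a1, which mark inhibitory neurons in general. Of this list, 2 of 6 were called higher (Sst 1.45, Slc32a1 0.68, adjusted p = 1.27e-05 and 0.0153). Pvalb (0.33), Sox6 (-0.07), Gad1 (0.40) and Gad2 (0.15) were not called. Of the markers of Htr3a-expressing interneurons, Vip (1.02) and Lamp5 (0.61) were called higher and Adarb2 lower (-0.62), of 7 tested. The part of these cells, and of the share of reads outside the annotated features, in the differences of Htr1a, Htr2a and Htr2c was not tested. In batch 2, where no receptor gene passed, 4 of 9 oligodendrocyte markers and Slc1a3 (0.93) were called higher, and in batch 3 no marker on these lists was called.

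Lists of other genes of the serotonin system and of its signalling are set beside the shares of all genes called, which in batch 1 were 4.03% higher and 3.94% lower. Among the other serotonin receptors (3 of 4 tested in batch 1), the genes of serotonin synthesis, transport and breakdown (8 of 12), G protein alpha subunits (10), the phospholipase C, calcium and protein kinase C list (10), adenylyl cyclases and protein kinase A (14) and GIRK potassium channels (3 of 4), 0 genes were called in any batch. Of the other receptors Htr2b had an adjusted p of 0.00193 in batch 1 at a log2 difference of -0.44. Htr2b lies inside Psmd1 on the opposite strand, and without a stated strand setting its reads cannot be told apart from those of that gene. The GIRK channels, which Gi/o-coupled receptors open, did not move together in batch 1. Kcnj3 was 0.15 higher, Kcnj6 0.55 lower (log2 -0.55, adjusted p = 4.20e-07) and Kcnj9 0.24 lower (-0.24), all with an adjusted p under 0.05 and all under 1.5-fold. Htr2b and the 3 channel genes were named after their values were seen.

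Among receptor partners and regulators, 1 of 11 genes was called. Arrb2, the beta-arrestin 2 gene whose product ends G protein signalling of Htr2a and other receptors, had 200 ± 30.0 normalized counts in batch 1 FANS and 322 ± 16.5 in INTACT (SD, n = 4 each), a log2 difference of 0.70 (adjusted p = 2.10e-06). Of the RNA editing enzymes, which recode the Htr2c transcript, 1 of 3 was called in batch 1: Adarb2, thought to lack editing activity, fell from 120 ± 22.6 to 77.6 ± 14.9 (-0.62, adjusted p = 0.00219). No gene of either list was called in batches 2 and 3.

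Some members share their place in the genome with other genes, and the strand setting of the counting was not given in the sources used here. D430036J16Rik runs on the strand opposite to Htr1b and shares 473 bp of exon with it. It had 41.3 to 57.2 normalized counts in batch 1 FANS and 28.3 to 43.6 in INTACT (-0.60, adjusted p = 0.0196) and was called lower, while its differences in batches 2 and 3 were -0.02 and -0.03. Htr1b reads within this stretch cannot be told apart from it. Snora35, a small nucleolar RNA gene in an intron of Htr2c on the same strand, shares no exon with its host. It was called lower in batch 3, where it had 4.46 to 11.4 in FANS and 1.00 to 4.06 in INTACT (-1.52, adjusted p = 0.0306). Its difference was -0.41 in batch 1, with an adjusted p of 0.244, and -1.08 in batch 2, with an adjusted p of 0.118. The host's microRNA genes were sparse, with at most 13.6 normalized counts in batch 1, at Mir1912.

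The genes most like each abundant member were taken by the correlation of log2 values after removal of the technique means, averaged over the 3 batches (31 libraries, 9611 genes). Htr5a followed Mgat5 (mean r 0.88), Bmp3 (0.87) and Clstn1 (0.85). Htr2c followed Grm3 (0.84), Cntn1 (0.82) and Bmper (0.80), and Htr2a followed Tm9sf2 (0.76), Mgat3 (0.75) and Tex2 (0.74). Htr1a followed Uqcrfs1 (0.77), Gsk3b (0.72) and Sgpp2 (0.72), and Htr1f followed Flrt3 (0.68), Wnt9a (0.62) and Syvn1 (0.62). Among the members themselves, Htr2a and Htr2c were the most alike (0.58), while the highest value of Htr1f with any other was 0.00. These correlations share library depth and are highest values picked among 9611 genes, so they are given as a description.

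The ATAC-seq comparison asked whether the same genes differed in accessibility. Peaks were called by the authors per library. The FANS libraries had 123596, 128910 and 130088 peaks, and the INTACT libraries had 113224, 99514 and 123895. The height of a peak is given as its fold enrichment over the local background. Of the 10 members, 8 had a peak within 1.5 kb of a start site in all 6 libraries, and 58.2% of 23165 genes with a matched start did so. Htr5a was highest, at 12.3, 13.5 and 13.1 in the FANS libraries and 11.2, 8.72 and 12.8 in the INTACT libraries. Htr2a, among the most abundant transcripts per length, had the lowest FANS mean of the 8, at 5.08, 5.94 and 6.72 in FANS and 6.86, 5.30 and 5.10 in INTACT, and 5.26% of genes with such a peak lay below it in FANS.

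The other heights overlapped in most genes. Htr2c had 11.4, 10.2 and 9.34 in FANS and 9.87, 7.81 and 10.5 in INTACT. Htr7 had 8.28, 10.9 and 11.6 against 7.62, 7.82 and 9.79, Htr1b 6.03, 6.98 and 6.53 against 6.05, 6.27 and 6.60, and Htr4 6.09, 7.11 and 8.41 against 5.60, 3.76 and 8.62. INTACT was below FANS in every library for 2 of the 8 genes, and 54.8% of the 13476 genes with such peaks in all libraries showed this. Htr1f had 8.76, 8.50 and 8.78 in FANS and 6.36, 6.11 and 6.98 in INTACT, a ratio of the means of 0.747. Htr1a had 8.99, 8.94 and 8.23 in FANS and 7.57, 6.46 and 8.14 in INTACT. With 3 libraries against 3, the two-sided exact permutation test cannot go below 0.100, and both genes gave 0.100. The median ratio of the 8 was 0.844, beside 0.854 over all such genes. Counted as a percentile among the peaks of its own library, INTACT was below FANS throughout for 1 of the 8, Htr1f, and for 37.2% of genes.

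The start sites of Htr1d and Htr3a differed in whether a peak was called at all. A start-site peak in more FANS than INTACT libraries was found for these 2 of 10 members and for 7.19% of genes. Htr3a had 9.48, 9.17 and 9.61 in FANS, no peak in INTACT libraries 1 and 2, and 5.07 in INTACT library 3. INTACT libraries 1 and 2 also had the fewest peaks of all libraries, and the part of this in the missing peaks was not tested. The FANS peaks of Htr3a were taller than those of the more abundant Htr2a and Htr1f. Htr1d was the 1 member with a peak in all 3 FANS libraries and no INTACT library, a pattern of 1.58% of genes. The Htr1d peaks were small, at 3.16, 2.99 and 2.80, with -log10 q of 3.07, 3.16 and 2.44, so none was left at a -log10 q of 5. The peaks of FANS libraries 1 and 2 did not touch each other and were joined into 1 region by that of FANS library 3.

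**Figure D4:**
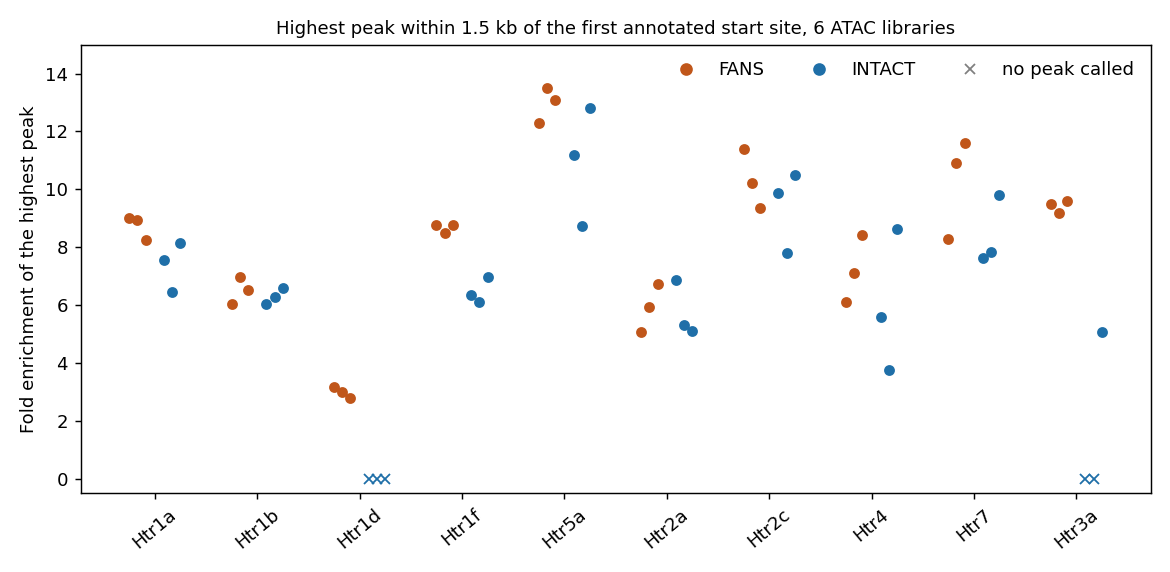
Fold enrichment of the highest ATAC-seq peak within 1.5 kb of the first annotated start site of each receptor gene, with 1 point per library and a cross at 0 where no peak was called. Among the genes with a peak in all libraries, Htr1f has the widest gap between techniques (8.50 to 8.78 against 6.11 to 6.98), and the crosses mark Htr1d in all INTACT libraries and Htr3a in 2 of them.

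The sequences just before these start sites are shown because the peaks above lie on or beside them. They are the 100 bases upstream of the first exon, from the reference build GRCm38.p6, read 5′ to 3′ on the strand of the gene, with matches to a searched motif in capitals.
Htr1a, chr13:105443593-105443692, plus strand: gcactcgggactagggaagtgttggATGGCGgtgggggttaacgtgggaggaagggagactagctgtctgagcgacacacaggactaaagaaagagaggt
Htr1f, chr16:65105785-65105884, minus strand: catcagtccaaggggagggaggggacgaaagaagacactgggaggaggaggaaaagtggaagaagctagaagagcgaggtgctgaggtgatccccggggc
Htr1d, second start, chr4:136424512-136424611, plus strand: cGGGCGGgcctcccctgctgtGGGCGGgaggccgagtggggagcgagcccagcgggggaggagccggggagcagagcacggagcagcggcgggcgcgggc
Htr2a, chr14:74640774-74640873, plus strand: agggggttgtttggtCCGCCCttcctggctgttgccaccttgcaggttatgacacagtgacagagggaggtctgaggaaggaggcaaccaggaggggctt
Htr2c, chrX:146962364-146962463, plus strand: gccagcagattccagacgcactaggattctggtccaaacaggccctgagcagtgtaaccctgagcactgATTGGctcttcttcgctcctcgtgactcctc
In these lines GGGCGG (or CCGCCC on the opposite strand) is the SP1 GC box, ATTGG the CCAAT box of NFY read on the opposite strand, and ATGGCG the YY1 core. The Htr2a window also overlaps an exon of Gm41210, and the Htr1d first start is left out because no peak covered it.

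The search covered both strands of the 250 bases upstream of each start, in 9 promoter records of 8 members (RefSeq, GRCm38.p6; Htr3a and Htr4 had no record). GGGCGG was found in 4 of 9 records and in 32.7% of all 32851 records, and CCAAT in 3 of 9 and in 33.8%. ATGGCG was found in 1, the Htr1a promoter, and in 5.73% of all. TGACG, the core of the CREB site, was found in 1 and in 17.8%. TATAAA and the ETS motif CCGGAA were found in 0 of 9, and in 12.4 and 12.0% of all records. The G and C content of the 250 bases ran from 49.2% for Htr1f to 82.0% for Htr7, beside a median of 52.4%. The 2 starts of Htr1d differed, with 51.6% at the first and 72.4% at the second, and the Htr1d peaks of FANS libraries 1 and 3 covered the second start, not the first.

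Over the gene bodies, the summed number of peaks did not separate the techniques. The members held 36, 36 and 38 peaks in the FANS libraries and 34, 33 and 42 in the INTACT libraries, that is 36.7 ± 1.15 and 36.3 ± 4.93 (SD, n = 3 each). The long genes Htr1f (181 kb), Htr4 (179 kb) and Htr2a (66.0 kb) held most of them. Htr1f had 8, 8 and 9 peaks in FANS and 11, 8 and 12 in INTACT, Htr4 11, 9 and 11 against 9, 9 and 11, and Htr2a 6, 6 and 6 against 5, 5 and 6. Htr2c, the longest member at 235 kb, had 1, 1 and 1 in FANS and 1, 2 and 3 in INTACT. Fewer peaks in every INTACT than in every FANS library were found for Htr1d alone (3, 2 and 2 against 0, 0 and 0, two-sided exact permutation p = 0.100, the smallest possible) and for 13.3% of 23170 genes. More peaks in every INTACT library were found for no member and for 2.02% of genes.

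Peaks that overlapped between libraries were merged into 54 regions over the bodies and start windows of the members, with 13 summits in exons, 39 in introns and 2 outside. Of these regions, 23 (42.6%) had a peak in all 6 libraries, beside 45.0% of the 170178 regions of the whole genome. A peak in all 3 FANS libraries and no INTACT library was found in 2 of the 54, beside 5.01% of all, and both lay in Htr1d. One of the pair was the start region described above, and the other lay 7.42 kb into the gene in an intron, at 4.51, 5.43 and 5.81. The reverse pattern was found in 1 region, beside 1.40% of all. It lay 0.906 kb upstream of the Htr1a start, at 4.19, 3.49 and 3.65 in the INTACT libraries.

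In 3 members the highest shared regions were intronic and taller than the start-site peaks of their own genes. In Htr1f a region 83.2 kb into the gene had 17.4, 20.1 and 20.9 in FANS and 18.9, 16.7 and 21.6 in INTACT, so it overlapped between techniques where the start site did not. In Htr2a a region 18.8 kb into the gene had 15.6, 16.8 and 17.9 in FANS and 16.6, 16.4 and 18.1 in INTACT. In Htr4 a region 131 kb into the gene had 18.1, 20.0 and 22.0 against 17.7, 14.8 and 18.7. In Htr1a, Htr1b, Htr5a, Htr2c and Htr7 the tallest region shared by all libraries was that of the start site.

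The 101 bases around the summits of 3 intronic regions follow, the first pair for the tallest shared regions of the most abundant members and the last for the region found in FANS libraries alone (GRCm38.p6, on the strand of the gene).
Htr1f, chr16:65022518-65022618, minus strand: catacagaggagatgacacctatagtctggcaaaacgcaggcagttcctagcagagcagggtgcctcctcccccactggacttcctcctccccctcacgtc
Htr2a, chr14:74659618-74659718, plus strand: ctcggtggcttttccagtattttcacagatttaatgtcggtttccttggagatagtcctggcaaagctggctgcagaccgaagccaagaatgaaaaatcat
Htr1d, chr4:136430888-136430988, plus strand: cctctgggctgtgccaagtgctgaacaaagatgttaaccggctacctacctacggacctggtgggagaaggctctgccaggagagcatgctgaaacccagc
None of the 3 holds the AP-1 motif TGANTCA, which activity-dependent factors of the Fos and Jun families bind, or GGGCGG, on either strand. Over 40 member regions outside Htr4, TGANTCA was found within the 101 bases in 6 (15.0%), 2 of its matches in 1 Htr1f region 90.3 kb into the gene, and in 9.60% of all 170178 regions. GGGCGG was found in 2 of the 40 and in 5.79% of all. The 14 regions of Htr4 were not searched, so these member shares cover the other genes only.

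**Figure D5:**
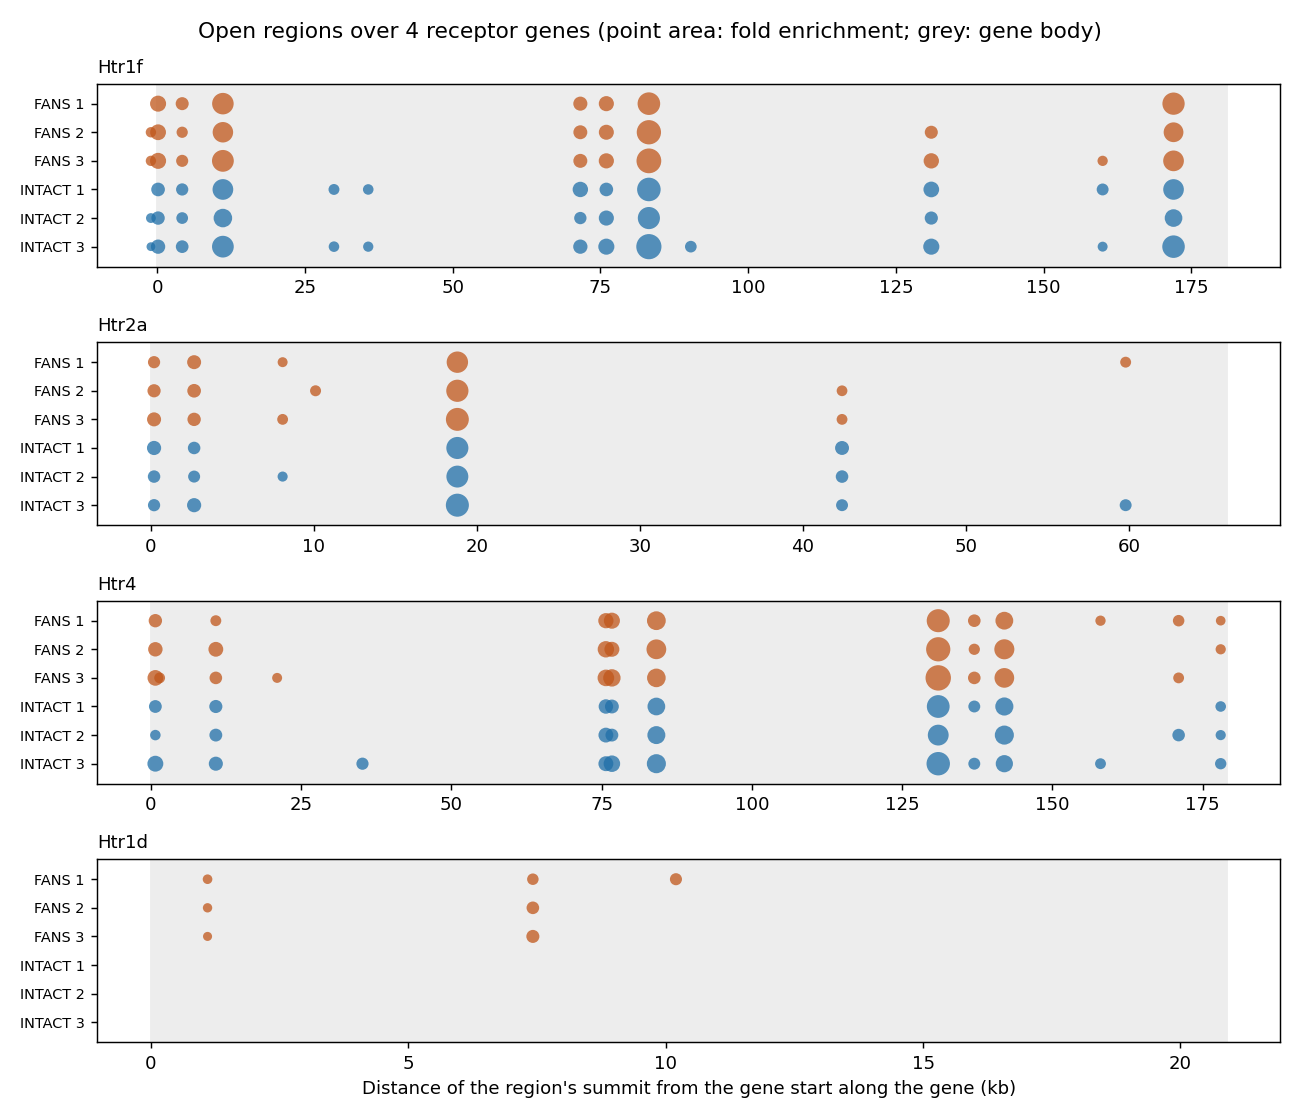
ATAC-seq regions over Htr1f, Htr2a, Htr4 and Htr1d by distance of the summit from the gene start in kb, with 1 row per library, point area growing with fold enrichment and grey marking the gene body. The large points are the intronic regions 83.2 kb into Htr1f, 18.8 kb into Htr2a and 131 kb into Htr4, present in all 6 libraries, and the Htr1d rows of the INTACT libraries are empty.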

How the data were processed

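Per the study's methods, the authors aligned nuclear RNA-seq reads to mm10 with STAR, removed duplicates by molecular identifier, counted with HTSeq and normalized each batch with DESeq. The deposited values are a signal of counts divided by size factors, 1 table per batch. All values became whole reads (within 0.1) once the scale of each library was recovered. Before deposit, ATAC-seq reads were aligned with Bowtie2, cleaned with Picard and given peaks per library by MACS2. The deposited peak lists hold a score, the fold enrichment (a ratio) and −log10 p and q values by the authors. The batch 1 columns named FACS were taken as FANS.

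From these, genes averaging 5 normalized counts or more were fitted per batch on the scale log2(normalized count + 1) with limma 3.58.1 (lmFit, eBayes with trend, R 4.3.3). Benjamini-Hochberg adjustment ran over all genes tested, and calls needed an adjusted p under 0.05 and 1.5-fold. Fold changes are on this scale and understate changes of low genes. Tests of differences between batches used 1 model over all of them. The fit was tested on simulated data. edgeR 4.0.16 and DESeq2 1.42.0 on the recovered reads, other pseudocounts, filters and scalings, a replicate block and leaving out each library were alternatives. Levels used the union of exons, and 5 summary rows stayed out. scipy 1.17.1, pandas 2.3.3, pysam 0.24.0 and matplotlib 3.10.9 served the rest.

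All 10 members were named, with list genes called in any batch (up to 4 a list), check markers (not all such genes are reported here), overlapping genes, the 3 genes most alike for members with a mean of at least 50, start-site peaks and the tallest shared region of each gene. Members and lists were chosen with earlier results of these data known.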

Additional observations from a re-analysis of the deposited data

Results flagged for a closer look

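Among 60 groups of 4 to 7 libraries, 3 held a library far from the others by Dixon's 95% criterion, and chance alone marks about 1 in 20 groups. Htr1d in batch 1 reached 16.8 normalized counts (11 reads) in FANS replicate 4, where the next library had 10.9. Htr5a in batch 3 reached 238 (273 reads) in FANS replicate 2, where the next had 197. Htr3a in batch 3 reached 3.04 (3 reads) in INTACT replicate 5, where the other 4 INTACT libraries had 0.

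The effect of technique differed between batches 1 and 3 for 2 members of 8 by the test of the difference itself, which 23.3% of all 14332 genes also passed. It was 0.58 on the log2 scale for Htr1a (limma adjusted p = 0.0224), from 0.37 in batch 1 and -0.20 in batch 3, the latter with an adjusted p of 0.484. It was 0.64 for Htr2c (adjusted p = 0.0128), from 0.50 and -0.14, the latter with an adjusted p of 0.710.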

How the results depend on the processing

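Of 184 values under another setting, 172 kept their direction and side of the threshold, and 8 kept their direction with no adjusted p from DESeq2. The replicate block turned 3 batch 2 differences: Htr1b to 0.59, Htr5a to 0.23 and Htr4 to 0.09 (adjusted p = 0.564, 0.470 and 0.943). No label says that equal numbers pair the samples. Deviations of same-numbered libraries from their group means correlated at -0.21 to 0.284. This cannot decide the question, since paired libraries of 1 source need not share such deviations. Under the replicate block in limma, Htr1a of batch 1 had an adjusted p of 0.0491. With DESeq2 this gene had 0.0620. Body peaks at a -log10 q of at least 5 averaged 31.7 per library instead of 36.5, and start sites with a peak in all libraries numbered 7 instead of 8, as Htr4 lost its peak in INTACT library 2. With the longest transcript in place of all exons, 26 of 30 positions in the order of levels stayed. Htr4 then rose from 0.306 to 0.567 RPKM in batch 1, where it stood above Htr1d. It rose from 0.280 to 0.520 in batch 2 and from 0.247 to 0.459 in batch 3. Leaving out 1 library at a time gave 329 values, of which 300 were unchanged in direction and side of the threshold, 6 lost an adjusted p under 0.05 and 23 turned. The ranges were 0.33 to 0.42 for Htr1a, 0.21 to 0.37 for Htr2a, 0.42 to 0.64 for Htr2c, 0.05 to 0.17 for Htr5a, -0.05 to 0.05 for Htr1f, -0.27 to 0.02 for Htr1b, -0.46 to -0.08 for Htr4 and -0.29 to -0.10 for Htr7 in batch 1. In batch 2 they were -0.33 to 0.06 for Htr1b, -0.08 to 0.03 for Htr1f, -0.05 to 0.06 for Htr5a, 0.05 to 0.13 for Htr2a, -0.03 to 0.17 for Htr2c, -0.17 to 0.09 for Htr4 and 0.09 to 0.33 for Htr7. In batch 3 they were -0.01 to 0.09 for Htr5a, -0.04 to 0.05 for Htr2a, -0.20 to -0.07 for Htr2c, 0.12 to 0.23 for Htr1f, -0.21 to 0.14 for Htr4 and -0.11 to 0.05 for Htr7. Batch 1 had 0 to 1 called members (Htr2c without FANS replicate 4), and body peaks averaged 35.4 to 37.2. The cause of each change was not tested. Depth limits Htr1d and Htr3a most, at 235 and 39 reads in all.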
